A study of Mus musculus with 16 samples.

Results

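Dimethylation of histone H3 at lysine 9 (H3K9me2) was compared between small intestinal crypts of Smarcad1-KO and WT mice by ChIP-seq. All regions of the deposited H3K9me2 table were used, in 6 ChIP libraries (3 WT and 3 KO) of the 16 libraries of the series, with 1 input library per genotype as background. The table held 47065 regions made of 179733 MACS peaks. Mice were C57BL/6 males. In KO mice, exons 12 to 14 of Smarcad1 were removed by a Cre recombinase under the Villin promoter (Vil-Cre), which is active in the intestinal epithelium. The floxed allele came from 1 mouse line, and other cells of a crypt isolate kept the gene. WT mice are labelled as wild type, and the sources used here do not give whether they carried the floxed allele or the Cre transgene. The study calls its H3K9me3 ChIP libraries biological replicates, and the sources used here do not tie each H3K9me2 library to an animal. Where libraries share animals, p-values measure the spread between these libraries, which may then be technical. In whole crypt isolates, less mark per cell and fewer cells that carry the mark cannot be told apart.

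H3K9me2 is a mark of repressed chromatin. It is laid down mainly by the methyltransferases G9a and GLP, removed by demethylases of the KDM3 and KDM4 families, and read by chromodomain proteins such as HP1. It covers broad domains that are rich in silent and tissue-restricted genes, often near the nuclear lamina. Smarcad1 is a SNF2-family chromatin remodeler that has been linked to the maintenance of repressive chromatin.

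The sequences at the middle of 4 of these regions or peaks show what kind of DNA the results below concern. The first 3 belong to regions with low KO values on chromosomes 17 and 8, and the last to a region with high KO values on chromosome 16. Each run holds 200 bases of the plus strand, and capitals mark CG dinucleotides. The sequences were read from the GRCm38 RefSeq genome.
St6gal2 peak: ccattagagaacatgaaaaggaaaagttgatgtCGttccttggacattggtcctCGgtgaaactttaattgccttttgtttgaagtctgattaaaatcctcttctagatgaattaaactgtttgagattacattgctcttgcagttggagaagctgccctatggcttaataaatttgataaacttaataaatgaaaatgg
Vmn2r118 and Pot1b peak: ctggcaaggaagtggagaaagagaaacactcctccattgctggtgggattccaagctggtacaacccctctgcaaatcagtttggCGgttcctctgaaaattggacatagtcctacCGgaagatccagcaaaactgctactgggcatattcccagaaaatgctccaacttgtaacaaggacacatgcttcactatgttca
Cd209b and Cd209c region: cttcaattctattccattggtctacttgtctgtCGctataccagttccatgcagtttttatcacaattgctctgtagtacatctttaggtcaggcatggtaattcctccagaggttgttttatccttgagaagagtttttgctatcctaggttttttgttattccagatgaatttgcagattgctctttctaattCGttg
Cyyr1 region: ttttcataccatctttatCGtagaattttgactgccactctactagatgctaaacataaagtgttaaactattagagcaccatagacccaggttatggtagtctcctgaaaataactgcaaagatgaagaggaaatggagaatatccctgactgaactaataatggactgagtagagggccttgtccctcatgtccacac

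The St6gal2 run (chr17:55462326-55462525) lay inside the gene St6gal2 and outside its exons, and held no annotated repeat. The run of the peak beside Vmn2r118 and Pot1b (chr17:55635201-55635400) lay between genes and was 98% repeat. The run between Cd209b and Cd209c (chr8:3930501-3930700) was 100% repeat, and the Cyyr1 run (chr16:85594776-85594975) was 10% repeat. The 4 runs held between 1 and 2 CG dinucleotides each. Over all regions there were 5.48 CG per kb, against 8.26 per kb over the chromosomes of the table.

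The regions covered 772.6 Mb, which is 28.3% of those chromosomes. Their median width was 7050 bp, with a range from 300 to 436650 bp. In the deposited annotation, 48.1% of regions named a gene. Region reads numbered from 20012262 to 28985859 in WT, from 18986927 to 39080740 in KO, and 11716581 and 12365259 in the WT and KO inputs. The median region held between 163 and 343 reads in a ChIP library. No region overlapped Smarcad1 (chr6:65042583-65116061) or Vil1 (chr1:74409376-74435559), and this table holds no check of the deletion. Of 47 marker genes of crypt and epithelial cells, 3 were named by a region (Lgr5, Tnfrsf19 and Dclk1), and of 14 markers of immune, stromal and endothelial cells, 3 did (Ptprc, Col1a2 and Cdh5).

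ChIP and input were each scaled to their own region reads, so ratios of ChIP to input are relative to the average region and do not measure enrichment of the mark. On this scale, 4.48% of regions were at least 1.5-fold over input in the mean of the libraries. On PC1 of the region values, which held 29.2% of the variance, WT replicate 1 (-30.7) and KO replicate 3 (38.1) stood at opposite ends. The deviation of WT replicate 1 from the mean followed the GC content of the regions (r = 0.56 across 47065 regions), against -0.31 to 0.14 in the other libraries. KO replicate 3 had 9.25% of regions at least 1.5-fold over its input, against 5.48% to 7.63% in the others.

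To ask whether loss of Smarcad1 changed H3K9me2 locally, reads per region were compared between genotypes. Of 47065 regions, 1 was lower in KO (0.00212% of regions) and 0 were higher (0%) at a Benjamini-Hochberg adjusted p under 0.05 in the edgeR quasi-likelihood F test. At an unadjusted p under 0.05 there were 717 lower (1.52%) and 753 higher (1.6%) regions, and DESeq2 called 3 lower and 0 higher. All 3 KO values lay below all 3 WT values in 1698 regions (3.61%) and above them in 2118 (4.5%). The median log2 fold change of KO over WT was -0.002, on a scale that the normalization centres, and the middle 90% of regions lay between -0.22 and 0.28.

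The size of a change that could be seen depended on region size. The 95% confidence interval of the log2 fold change lay within 0.5 of 0 on both sides in 75.8% of regions and within 1 in 97.2%. Its median half-width was 0.39 in regions of 1 MACS peak and 0.0962 in regions of 20 or more. In simulated tables, 90% of 2-fold and 69% of 1.5-fold changes were recovered over 47065 regions, with 12 false calls among the unchanged regions. The simulation changed 200 regions and drew each count from a fitted dispersion, with no deviation shared across the regions of a library. The real libraries held such deviations (WT replicate 1 with GC content), so these rates do not carry over to the real comparison.

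**Figure D1:**
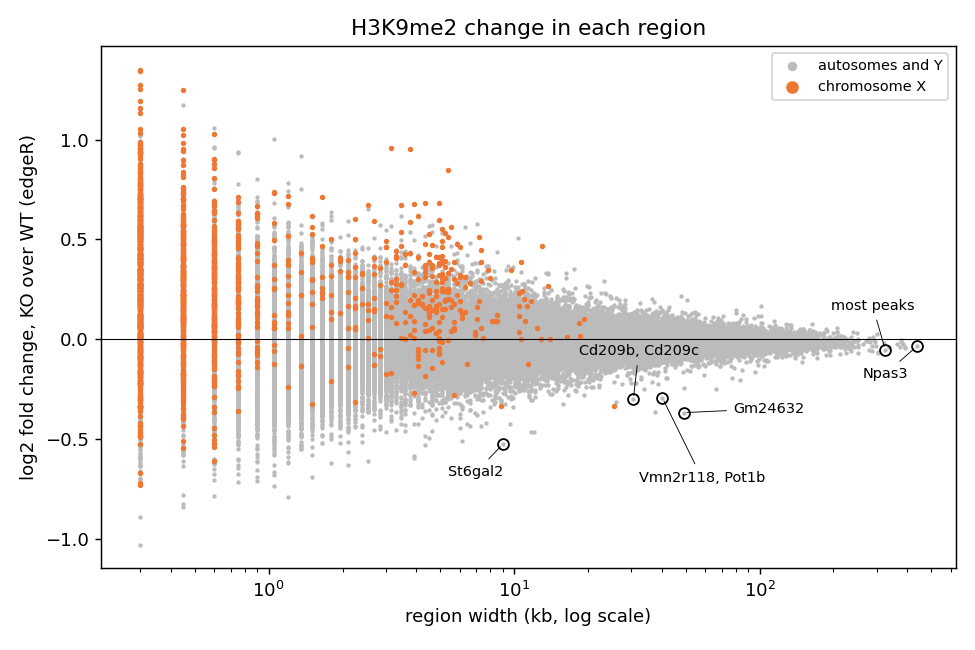
The log2 fold change of H3K9me2 (KO over WT, edgeR) is plotted against region width in kb on a log axis, with 1 point per region (grey, autosomes and Y; orange, chromosome X). The spread narrows with width. Circles mark 6 named regions, of which those of Gm24632, St6gal2, Vmn2r118 and Pot1b, and Cd209b and Cd209c lie below the main cloud, while the widest region (Npas3, -0.04) and that with the most peaks (-0.05) lie near 0.

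The region past the threshold was on chromosome 18 (chr18:3810001-3859050, 14 MACS peaks). It is annotated with the non-coding RNA gene Gm24632, which begins 1058 bp past its end and is not covered by it. Reads were scaled to RPM, reads per 1000000 region reads of a library. The region held 62.5, 57.9 and 60.8 RPM in the WT replicates, against 46.0, 46.9 and 48.2 in the KO replicates, each in the order 1 to 3 as in all lists below. The genotypes did not overlap, and the 3 KO values lay close together. The log2 fold change was -0.37 (SE 0.0535, edgeR adjusted p = 0.0284). The inputs held 52.5 (WT) and 49.8 (KO) RPM at this region, a difference of -0.08 on the log2 scale. When single libraries were omitted, the call was lost in 5 of 6 cases, with edgeR adjusted p from 0.0784 without WT replicate 2 to 0.437 without KO replicate 2, and it was kept without WT replicate 1 (0.031). With libraries thinned to the shallowest the call was also lost (edgeR adjusted p = 0.074), while DESeq2 and GC-dependent offsets kept it.

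The Gm24632 region lay in a stretch without protein-coding genes, between Bambi, which encodes a decoy receptor of TGF-beta and BMP signaling, and the lysozyme-like gene Lyzl1. Its start was 293.6 kb from the end of Bambi and its end 306.8 kb from the start of Lyzl1. All 27 other regions within 500 kb had a negative log2 fold change, with a median of -0.24, and 13 of them had an unadjusted p under 0.05, beside 1.52% lower regions with such a p in the whole table. Summed over the stretch from 3358501 to 4304700 bp, WT replicates held 598.2, 538.3 and 536.6 RPM and KO replicates 477.7, 496.4 and 488.5. Thus every KO library lay below every WT library over the whole stretch, by -0.19 on the log2 scale, and by -0.22 to -0.14 when 1 library was left out, with the smallest difference without WT replicate 1. The input difference over the stretch was -0.08. This stretch and those on chromosomes 17 and 8 were chosen for the low values of their central region, so their counts are a description.

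The next regions by p were on chromosome 17 and did not pass the threshold. The St6gal2 region (chr17:55456051-55465050), whose sequence is given above, lies in a gene for a sialyltransferase of the Golgi. It held 17.4, 15.3 and 15.9 RPM in WT and 12.4, 10.3 and 11.0 in KO. These groups were well apart, with a log2 fold change of -0.53 (SE 0.0926, edgeR adjusted p = 0.18), whereas its inputs held 13.1 (WT) and 14.6 (KO), higher in KO by 0.15 on the log2 scale. The other 3 regions of St6gal2 had log2 fold changes of -0.45, -0.58 and -0.22, so all 4 had lower KO values in every library. Summed over the gene, there were 80.3, 74.0 and 75.3 RPM in WT and 63.3, 61.4 and 59.3 in KO (log2 fold change -0.33, SE 0.0517, edgeR adjusted p = 0.1215).

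A region at Vmn2r118, a vomeronasal receptor gene, and Pot1b, which encodes a telomere-binding protein, followed (chr17:55607251-55647450). It held 55.8, 58.5 and 58.6 RPM in WT and 46.4, 47.3 and 47.8 in KO, with no overlap. The log2 fold change was -0.30 (SE 0.0525, edgeR adjusted p = 0.18), and the input difference was -0.10. The calls of both chromosome 17 regions depended on the setting. With GC-dependent offsets the adjusted p of edgeR was 0.00405 for both, and DESeq2 gave 0.0324 for both. With libraries thinned to the shallowest, the edgeR adjusted p was 0.999 at St6gal2 and 0.482 at Vmn2r118 and Pot1b. With 1 library left out, it ran from 0.308 to 1 at St6gal2 and from 0.0359 to 1 at Vmn2r118 and Pot1b, which passed only without WT replicate 1.

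The 3 peaks of the short deposited list, on chromosome 17, lie in these regions. The St6gal2 peak (chr17:55459801-55465050) held 320, 227 and 204 reads in WT and 303, 133 and 262 in KO before scaling to depth. The second peak (chr17:55631701-55632750) held 73, 54 and 47 reads in WT and 55, 18 and 37 in KO, and the third (chr17:55633801-55636800) held 186, 135 and 126 in WT and 130, 63 and 147 in KO. KO replicates 1 and 3 were the deepest libraries and KO replicate 2 the shallowest.

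Low KO values extended over much of this locus. Within 500 kb of the St6gal2 region, 24 of 30 other regions had a negative log2 fold change (median -0.17), of which 13 had an unadjusted p under 0.05, and 0 had such a p with a positive value, beside 1.52% lower and 1.6% higher among all regions. Low values ended toward Adgre4, a gene of the adhesion G protein-coupled receptor family, where regions lay near 0. The 1 Mb window from 55000001 to 56000000 bp held 761.5, 755.6 and 761.7 RPM in WT and 670.3, 677.4 and 685.0 in KO, and 723.8 and 716.2 in the WT and KO inputs. WT libraries were within a narrow range and all above the KO libraries (log2 fold change -0.17, SE 0.02631), but the window did not pass the threshold over 2379 windows (edgeR adjusted p = 0.1393).

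**Figure D2:**
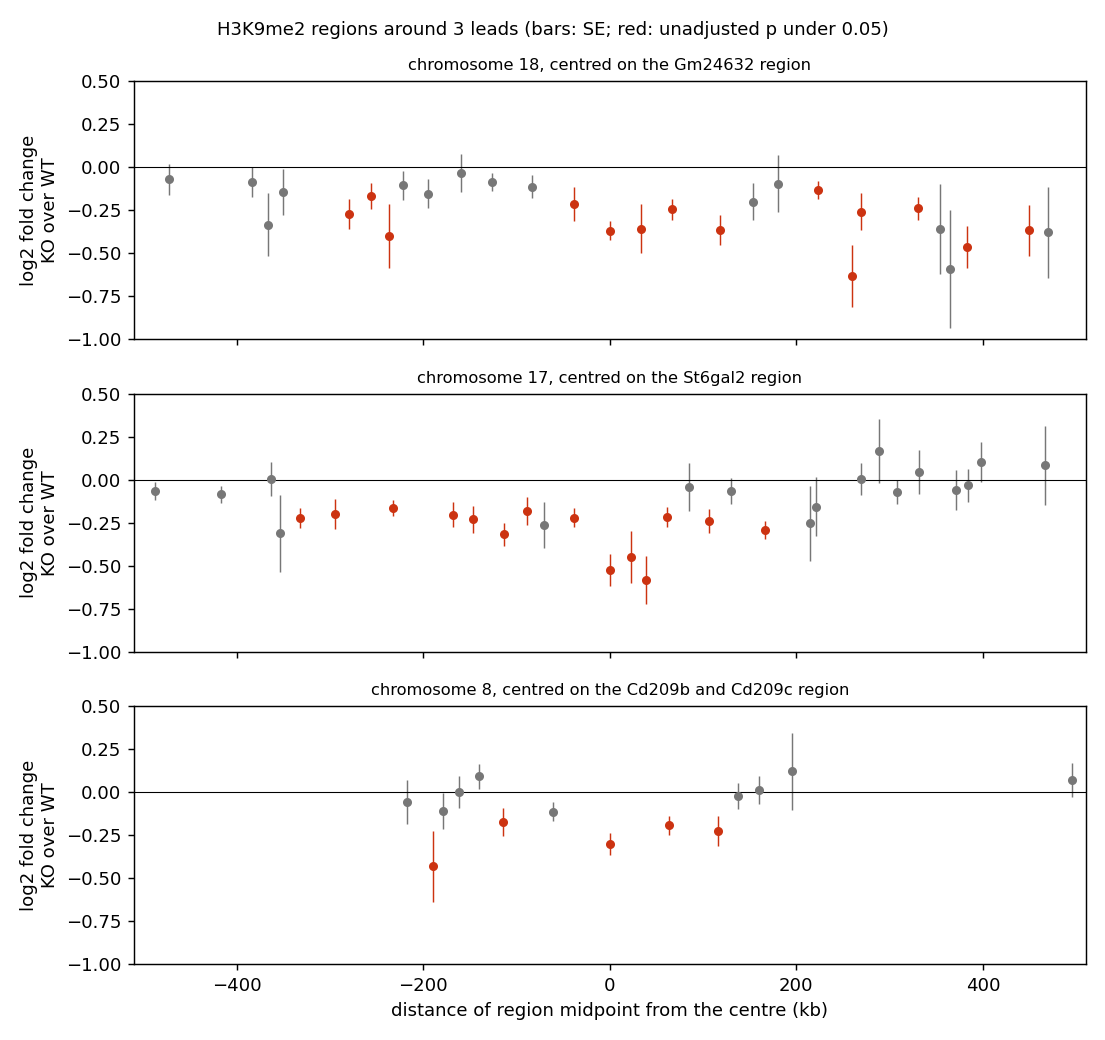
The log2 fold change (KO over WT) of each H3K9me2 region is plotted against the distance of its midpoint in kb from a central region on chromosome 18 (Gm24632), 17 (St6gal2) or 8 (Cd209b and Cd209c). Bars are SE and red points have an unadjusted p under 0.05. On chromosome 18 all points lie below 0, on chromosome 17 the red points span the left side and centre and end before 200 kb on the right, and on chromosome 8 low points are mixed with points near 0.

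On chromosome 8 the leading region lay in the cluster of Cd209 genes, which encode C-type lectin receptors of the DC-SIGN family (Cd209b and Cd209c, chr8:3915301-3945900, sequence above). It held 46.6, 43.8 and 40.6 RPM in WT and 35.6, 36.7 and 35.0 in KO, and 33.7 and 33.4 in the WT and KO inputs. No KO value reached the lowest WT value. The log2 fold change was -0.30 (SE 0.0628, edgeR adjusted p = 0.804). With GC-dependent offsets the edgeR adjusted p was 0.0292. This was the single pass in 12 settings, the replicate block and the joint removal of libraries (both below) aside. Of 13 other regions within 500 kb, 8 had a negative value (median -0.06) and 4 of these had an unadjusted p under 0.05, beside 1.52% of all regions. The sum over this stretch was lower in KO by -0.11 on the log2 scale, with an input difference of -0.08. WT replicate 1 held 407.9 RPM there, above the 368.8 and 370.1 of the other WT libraries, and without it the difference was -0.06, smaller than that of the inputs (-0.13 to -0.06 over all single libraries left out).

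Among the remaining 7 of the 11 lower regions named by the rule, all had an edgeR adjusted p of 1. They were at Vmn1r210 and Vmn1r211 (vomeronasal receptors, log2 fold change -0.22), Olfr402 (an olfactory receptor, -0.19), Krtap11-1 (a hair keratin-associated protein, -0.25), Lyzl1 (-0.24), Trav4-3 (a T cell receptor alpha variable segment, -0.59), Hpse2 (a heparanase homolog, -0.51) and Kcnq5 (a voltage-gated potassium channel, -0.53). At Krtap11-1, a region of 25 MACS peaks, WT libraries held 81.4, 66.9 and 69.8 RPM and KO libraries 63.9, 63.0 and 57.9. WT replicate 1 stood above the other WT libraries there, and the log2 fold change was -0.16 (SE 0.0544) without it. At Hpse2 and Trav4-3 the KO input was also below the WT input, by -0.26 and -0.25 on the log2 scale.

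Kcnq5 held regions of both directions. Of its 13 regions along chr1:21398403-21961942, 3 had an unadjusted p under 0.05 with lower and 4 with higher KO values, beside 1.52% and 1.6% of all regions. The gene is on the minus strand, so its end comes first. The 5 regions at that end held 40.7, 42.2 and 38.5 RPM in WT and 31.4, 30.3 and 37.1 in KO, a log2 difference of -0.30 with an input difference of -0.07. KO replicate 3 lay just below the WT libraries, and the difference was -0.39 without it. The 5 regions toward its start held 259.8, 278.9 and 276.0 in WT and 296.8, 309.5 and 290.5 in KO, a difference of 0.14 with an input difference of 0.04. The middle 3 differed by 0.03. KO values were thus lower at the end of the gene and higher toward its start without overlap in either part, but these parts were formed after the values were seen. At the region of the start-side part with the smallest p (chr1:21716851-21739200, log2 fold change 0.19, SE 0.0616), the input was higher in KO by 0.28.

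The 10 higher regions named by the rule also had an edgeR adjusted p of 1. They were at Stau2 (an RNA-binding protein, log2 fold change 0.53), Obox4-ps26 (1.17), Igkv13-54-1 and Igkv4-54 (immunoglobulin kappa variable segments, 0.33), Sult2a-ps4 (0.43), Sult2a2 (a hydroxysteroid sulfotransferase, 0.37), St8sia6 (a sialyltransferase, 1.06), Cyyr1 (0.17), AC132239.3 (0.93), Adam34 (a testis metalloproteinase, 0.35) and Olfr1367 (0.52). KO replicate 3 was the highest library at AC132239.3 and St8sia6, and without it their log2 fold changes were 0.56 and 0.72. The Sult2a2 region held 7.69, 7.90 and 8.80 RPM in WT and 9.97, 10.4 and 11.1 in KO. The Cyyr1 region (chr16:85544401-85645350, last sequence above) held 109, 120 and 117 in WT and 131, 130 and 128 in KO, while both inputs lay near the KO values, at 128.4 (WT) and 127.8 (KO). The Stau2 and Sult2a-ps4 regions were 96.9% and 99.3% repeat. At Stau2, Obox4-ps26, St8sia6 and Olfr1367 the KO input was also higher, by 0.39, 0.31, 1.51 and 0.51 on the log2 scale, and by 0.11 and 0.13 at the immunoglobulin and Sult2a2 regions. At Sult2a-ps4, AC132239.3 and Adam34 the KO input was lower, by -0.23, -0.73 and -0.26. The inputs held as few as 5 and 17 reads (WT and KO, St8sia6), and the part of the input in these values was not tested.

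**Figure D3:**
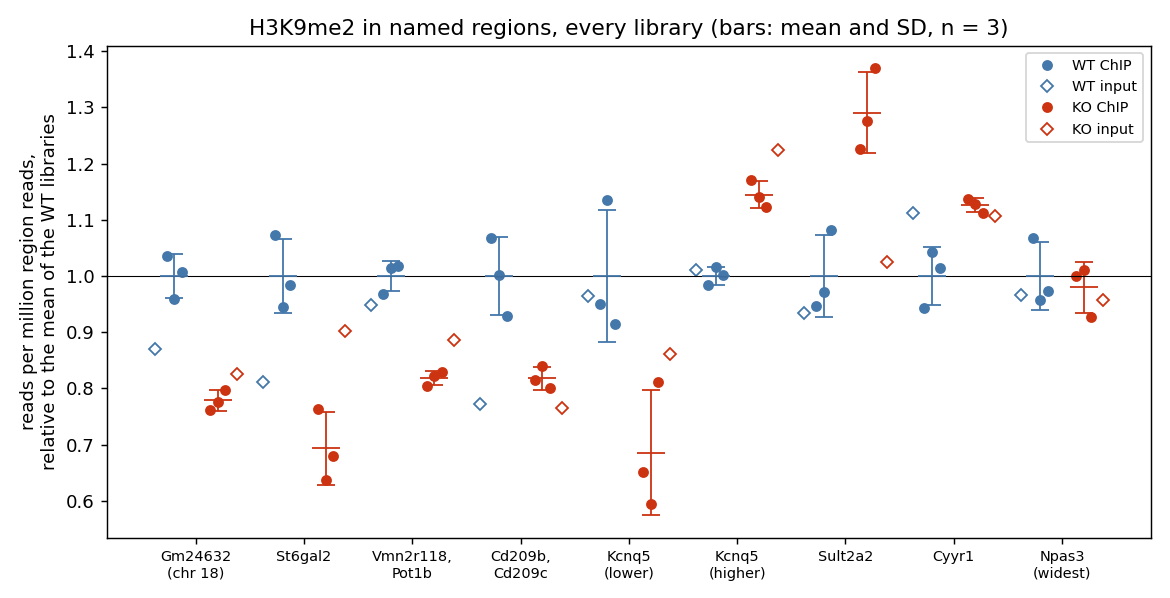
RPM, divided by the mean of the 3 WT libraries, are plotted for 9 named regions in every library (dots, ChIP; open diamonds, input; blue, WT; red, KO; bars, mean and SD, n = 3). The KO dots lie below the WT dots at Gm24632, St6gal2, Vmn2r118 and Pot1b, Cd209b and Cd209c and the first Kcnq5 region, above them at the second Kcnq5 region, Sult2a2 and Cyyr1, and among them at Npas3.

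The region with the most peaks, the widest region and the size classes had similar values in both genotypes. The region with the most MACS peaks (79, chr9:47922451-48247650, at Nxpe4) held 508.5, 407.7 and 406.2 RPM in WT and 441.3, 434.2 and 404.8 in KO (log2 fold change -0.05, SE 0.0634). The widest region (436650 bp, chr12:53523601-53960250, at the neuronal transcription factor gene Npas3) held 683.7, 612.8 and 623.4 in WT and 640.5, 646.5 and 593.9 in KO (-0.04, SE 0.0468). In both, WT replicate 1 was the highest library and the groups overlapped. Without it the log2 fold changes were 0.06 (SE 0.0414) at Nxpe4 and 0.02 (SE 0.0403) at Npas3. The 771 regions of 20 or more MACS peaks took 14.84%, 14.32% and 14.24% of region reads in WT and 14.59%, 14.52% and 14.09% in KO, and the 17988 regions of 1 peak took 6.77%, 6.65% and 6.67% in WT and 6.58%, 6.63% and 6.93% in KO. None of the 5 size classes was free of overlap, and the smallest exact permutation p (two-sided, 3 against 3, smallest possible 0.1) was 0.9. Median log2 fold changes ran from 0.007 in regions of 1 peak to -0.012 in those of 20 or more.

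The share of region reads on each chromosome was then compared. Of 21 chromosomes, 2 (9.52%) had no overlap between genotypes, chromosome 10 (higher in KO) and chromosome 8 (lower). This was near the 8.11% of all regions without overlap in either direction. Chromosome 10 took 5.687%, 5.735% and 5.734% in WT and 5.755%, 5.744% and 5.742% in KO, and chromosome 8 took 5.579%, 5.568% and 5.570% in WT and 5.546%, 5.552% and 5.557% in KO. WT replicate 1 was the lowest on chromosome 10, and leaving out a library cannot create overlap. Both reached the smallest exact permutation p of 0.1 that the design allows (two-sided, adjusted p = 0.84 over the 21 chromosomes). The 2 inputs differed more than the ChIP groups, with 5.770% (WT) and 5.819% (KO) on chromosome 10 and 5.577% and 5.549% on chromosome 8.

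Chromosome 19 stood out in counts of regions. Of its 895 regions, 57 (6.37%) had an unadjusted p under 0.05 with lower KO values and 3 (0.335%) with higher ones, against 1.52% and 1.6% of all regions, and the median log2 fold change was -0.045. Its share of region reads was 1.831%, 1.793% and 1.810% in WT and 1.694%, 1.797% and 1.792% in KO, so KO replicate 1 was lowest and the groups overlapped (exact permutation p = 0.2, two-sided). The inputs held 1.764% (WT) and 1.633% (KO). Without KO replicate 1 the median was -0.016, with 28 lower and 18 higher regions. Without WT replicate 1 it was -0.027, with 61 and 12, and without KO replicate 3 it was -0.07, with 60 and 2. Across the 19 autosomes, the deviation of the share in KO replicate 1 from the mean followed the KO to WT ratio of the inputs (r = 0.96), against -0.72 to 0.16 in the other libraries. These points share the depth and base composition of each library.

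On chromosome X the counts went the other way. Its 1756 regions were small, with a median width of 450 bp, 1 MACS peak and 2.042 Mb in all, and had a median ChIP over input of 0.82 on the log2 scale, relative to the average region. There, 135 regions (7.69%) had an unadjusted p under 0.05 with higher and 2 (0.114%) with lower KO values, against 1.6% and 1.52% of all regions, and the median log2 fold change was 0.24. Chromosome X held 17.9% of all regions with such a p and higher KO values. Its share of region reads was 0.2065%, 0.195% and 0.1917% in WT and 0.2118%, 0.2023% and 0.2705% in KO, against 0.1226% and 0.1207% in the WT and KO inputs. KO replicate 3 stood far above the other 5 libraries, KO replicate 2 lay within the WT range, and the exact permutation p was 0.2 (two-sided). Without KO replicate 3 the median was 0.083, with 13 lower and 48 higher regions.

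**Figure D4:**
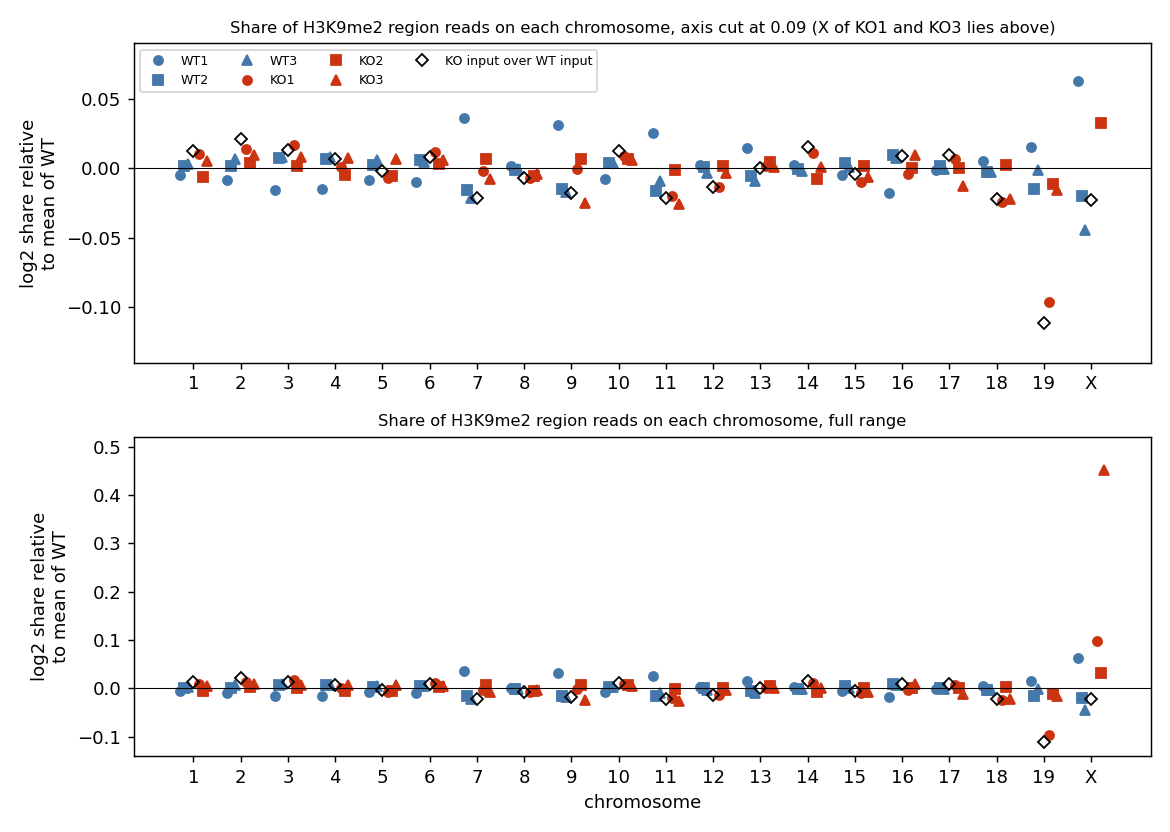
The share of H3K9me2 region reads on each chromosome is plotted for every library as log2 relative to the mean of the 3 WT libraries (blue, WT; red, KO; open diamonds, KO input over WT input; the upper panel cuts the axis at 0.09, so that KO replicates 1 and 3 on chromosome X lie outside it). On chromosome 19 KO replicate 1 and the input ratio lie low together, and on chromosome X KO replicate 3 stands alone.

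Repeat-rich regions had slightly higher values in all 3 KO libraries. In the fifth of regions with the most repeat sequence (9413 regions, 55.5% to 100% repeat), the share of region reads was 10.07%, 10.11% and 10.11% in WT and 10.19%, 10.16% and 10.44% in KO, with 9.89% and 9.81% in the WT and KO inputs. KO replicate 3 was again the highest. The exact permutation p was 0.1, the smallest possible (two-sided, adjusted p = 0.5 over 5 classes), and the median log2 fold change was 0.03. At an unadjusted p under 0.05, 315 of these regions (3.35%) had higher and 100 (1.06%) lower KO values, against 1.6% and 1.52% of all regions. Without KO replicate 3 there were 176 higher and 125 lower, and the median was 0.015. Classes by GC content, width, position along the chromosome, gene annotation or input density all overlapped between genotypes.

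Reads of regions that name the same gene were summed for 12516 genes. By this test Gm24632, which names the single called region, was lower (edgeR adjusted p = 0.04913, 0.00799% of genes) and 0 genes were higher. At an unadjusted p under 0.05 there were 173 lower (1.38%) and 181 higher (1.45%) genes. DESeq2 gave 3 lower and 0 higher genes, while with total counts or thinned libraries 0 genes were lower. Genes without overlap numbered 397 lower (3.17%) and 633 higher (5.06%). In 1 Mb windows, 0 of 2379 were lower or higher, with 20 lower (0.841%) and 22 higher (0.925%) at an unadjusted p under 0.05, and DESeq2 called 1 lower window. Windows without overlap numbered 49 lower (2.06%) and 98 higher (4.12%).

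Gene families were described by the log2 fold changes of their regions, beside the median of -0.002 over all regions and the shares of 1.52% lower and 1.6% higher regions at an unadjusted p under 0.05. Genes with long introns and neuronal functions formed the largest list, with 1324 regions in 40 of 40 genes. Its median was -0.007, with 13 lower (0.982%) and 9 higher (0.68%) regions at an unadjusted p under 0.05, shares below those of all regions. Olfactory receptor genes, 709 regions, had a median of 0.008, with 10 lower (1.41%) and 12 higher (1.69%), near the shares of all regions. Vomeronasal receptor genes, 257 regions, had a median of 0.018, with 6 lower (2.33%) and 5 higher (1.95%). Solute carrier (233 regions, -0.008), Zfp zinc finger (177 regions, 0.006), cadherin (156 regions, -0.027), imprinted (34 regions, 0.013) and germline and meiosis genes (21 regions, 0.03) also lay near 0. Of the cadherin regions, 6 (3.85%) had an unadjusted p under 0.05 with lower and 2 (1.28%) with higher KO values, and the median was -0.013 without KO replicate 3 and -0.017 without WT replicate 1. Potassium channel genes, which include Kcnq5, had 9 lower (4.15%) and 4 higher (1.84%) of 217 regions and a median of -0.008 (-0.022 to -0.002 with 1 library left out). Keratin-associated protein genes, which include Krtap11-1, had 3 lower (20%) and 0 higher of 15 regions and a median of -0.013 (-0.069 to -0.019). Without WT replicate 1 the olfactory, vomeronasal and solute carrier medians were -0.007, -0.002 and 0.012, so their signs rest on that library. The Zfp and germline medians were -0.003 and -0.004 without KO replicate 3. The median of the imprinted genes was -0.022 without WT replicate 3 and 0.052 without WT replicate 1, and that of the long neuronal genes ran from -0.019 to 0.005 with 1 library left out. The Hox and Schlafen genes had no region.

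Cytochrome P450 genes, which encode oxidases of steroids, fatty acids and drugs, had a median of -0.064 over 116 regions. It was -0.031 without WT replicate 1, -0.029 without KO replicate 1 and -0.101 without KO replicate 3. Of these, 7 (6.03%) had an unadjusted p under 0.05 with lower and 1 (0.862%) with higher KO values, against 1.52% and 1.6% of all regions. The Cyp2c29 region held 60.8, 60.4 and 63.9 RPM in WT and 52.9, 56.1 and 56.7 in KO (log2 fold change -0.17, SE 0.0524). The other 6 lower members were in Cyp3a57 (-0.35), Cyp3a16 (-0.44), Cyp19a1 (-0.45), Cyp2c38 (-0.31) and, with 2 regions, Cyp2c66 (-0.14 and -0.34), and the higher one was in Cyp2a4 (0.21). The 40 members on chromosome 19, described above, had a median of -0.08 and the other 76 a median of -0.048.

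The machinery of the mark was mostly outside the regions. Of 29 writers, erasers and readers of H3K9 methylation, 4 were named by a region (Mecom, Prdm16, Kdm4c and Cdyl), 11 regions in all with a median of -0.081 (-0.029 without KO replicate 1) and 0 with an unadjusted p under 0.05. Of the 47 crypt and epithelial markers, the 3 with regions had summed log2 fold changes of 0.03 (SE 0.24) for the stem cell receptor Lgr5, 0.04 for Tnfrsf19 and -0.08 for the tuft cell kinase Dclk1. The immune, stromal and endothelial markers Ptprc (0.04), Col1a2 (0.02) and Cdh5 (-0.07) had values as close to 0.

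**Figure D5:**
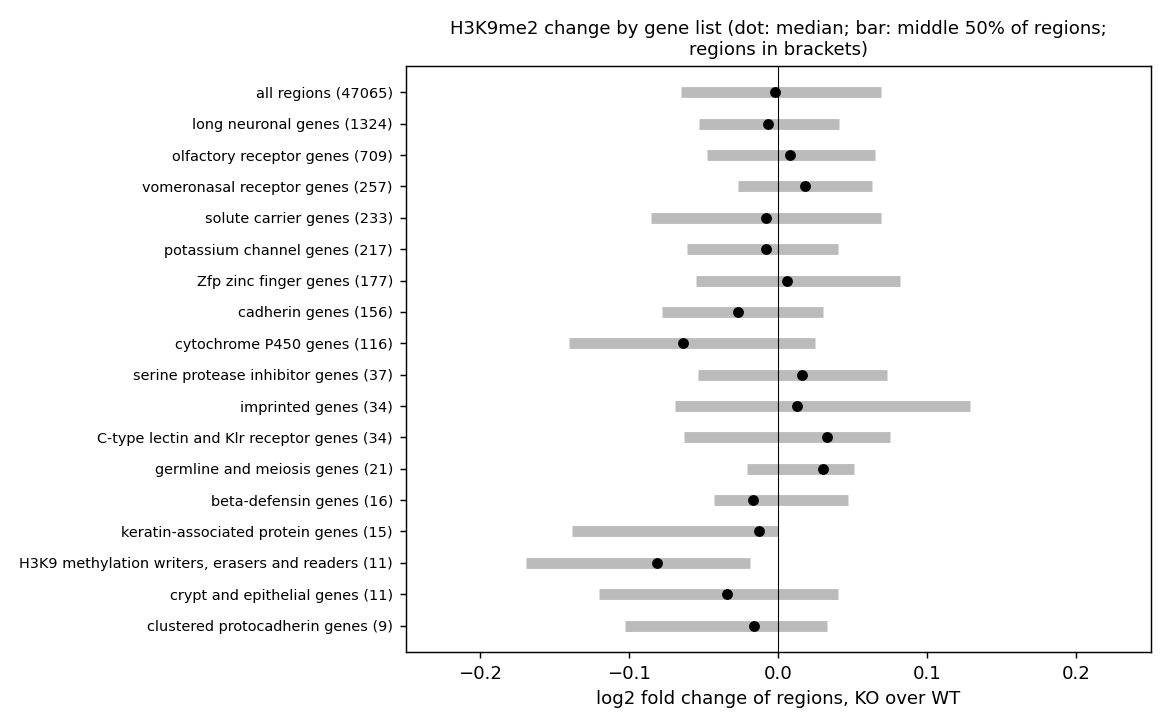
Medians (dots) and middle 50% (bars) of the log2 fold change of H3K9me2 regions, KO over WT, are plotted for all regions and for each list with at least 9 regions, with the number of regions in brackets. The bar of the H3K9 methylation list (11 regions) lies left of 0, all other bars span or reach 0, and the cytochrome P450 list lies slightly left of 0.

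Genes that the study describes as upregulated in KO were examined last, since H3K9me2 is a mark of silent genes. Of the 17 genes, 2 were named by a region in the deposited annotation, Tlr4, a receptor for bacterial lipopolysaccharide (summed log2 fold change 0.05), and Reg3b, an antimicrobial lectin whose region lay 3907 bp outside the gene (-0.07). Among 5 genes described with gained H3K9me3, Tcf4 was named by regions (0.07). Regions within 500 kb of the 17 genes were then summed, a step added after the values were seen, and 13 genes had such regions. The sums did not overlap between genotypes for 3 of the 13 genes, lower for 2 (Bambi and Tiam1) and higher for 1 (Khdc1a), beside 2.06% and 4.12% of 1 Mb windows. Tiam1 is also among the genes described with gained H3K9me3, and there it is named as lower in expression, so both directions of expression are given for it. The sums of the other 4 overlapped.

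The neighbourhood of Bambi, which overlaps the chromosome 18 stretch above, held 581.6, 527.8 and 521.7 RPM in WT and 488.0, 511.7 and 491.5 in KO (log2 difference -0.13, input difference -0.09). Without WT replicate 1, its highest library, the difference was -0.08. The nearest region was 19223 bp from the gene, and 24 of 32 regions had a negative value. The neighbourhood of Tiam1, which encodes an activator of the GTPase Rac1, held 398.3, 364.7 and 362.5 in WT and 343.8, 346.9 and 341.2 in KO (log2 difference -0.13, input difference -0.01). WT replicate 1 was again the highest, and the difference was -0.08 without it. Here 19 of 22 regions had a negative value, including the Krtap11-1 region above. The neighbourhood of Khdc1a contains the regions of Kcnq5 and held 500.7, 514.9 and 505.7 in WT and 518.2, 536.9 and 515.4 in KO (log2 difference 0.05, input difference 0.03), with 0.03 to 0.06 when 1 library was left out. The margin between genotypes was narrow at Khdc1a and wider at Tiam1, and none of the 3 genes was itself named by a region.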

How the data were processed

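H3K9me2 ChIP-seq (antibody ab1220, paired-end reads of 100 bp) was analysed in 3 WT and 3 KO crypt libraries, with 1 input per genotype. Per the methods of the study, reads were trimmed with Trim Galore 0.4.4, mapped to GRCm38 with Bowtie2 2.3.2, and imported into SeqMonk at a mapping quality of at least 20 without duplicates. MACS peaks (fragment size 300 bp) were called once on all ChIP libraries against both inputs, so no peak speaks for a single library. The authors deposited, as signal, the mean read coverage per MACS peak in each region. How peaks were joined into regions is not given in the sources used here. The mean times the number of peaks lay within 0.00114 of a whole number and was rounded to reads. A short list deposited by the authors gives read counts of 3 peaks, and its test columns were not used. Another 8 columns, of standard deviations, were not used.

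Region reads were tested with edgeR 4.0.16 (R 4.3.3; TMM, filterByExpr, quasi-likelihood F test, genotype as the single term, two-sided, Benjamini-Hochberg adjusted p under 0.05). The same test was run on sums over 1 Mb windows and over genes named in the deposited annotation, where 1 region counts for each gene it names. Of the 25510 pairs of symbol and region, 78.1% overlapped that gene in GENCODE M21. The others named a gene that the region did not overlap, or a symbol absent from GENCODE M21, which held the symbol of 23363 pairs. Shares of reads were compared with exact permutation tests over the 20 regroupings of 3 and 3 libraries. RPM, reads per 1000000 region reads, are relative to all regions of a library, so a shift of the mark over all regions would not be seen. By Western blot, the study reports no global change of the mark, apart from some decrease in crypts of the small intestine. From its ChIP-seq it states that the deletion did not seem to affect the mark significantly. The functions were tested on simulated data. DESeq2 1.42.0 and other settings were alternatives.

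Named regions were every called one, the 10 lower and 10 higher ones of smallest p with a gene symbol and no overlap (1 per gene, no Gm or Rik symbols), those of the study's gene lists and listed peaks, the widest and the one with the most peaks, and the leading region of each family. The gene families, gene lists, stretches and members were chosen with earlier results of these data known. Libraries that share a replicate number deviated from their group means with correlations of 0.18, 0.02 and 0.08, and the numbers were not taken as pairs.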

Additional observations from a re-analysis of the deposited data

How the results depend on the processing

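Counts of calls were small and depended on the setting. For regions, where 1 was lower and 0 were higher, the lower count was 3 with DESeq2, 6 with GC-dependent offsets, and 0 with libraries thinned to the shallowest. It was also 0 with only regions 1.5-fold over input, a filter that removes the called region (0.07 over input on the log2 scale) before the test. For genes (1 lower), it was 3 with DESeq2 and 0 with total counts or thinned libraries, and DESeq2 called 1 window. With a replicate block there were 15 lower and 2 higher regions, 1 lower window and 7 lower genes, but pairing by number was not established (r = 0.18, 0.02 and 0.08 for same-numbered libraries, -0.12 to 0.07 for the others). Leaving out 1 library gave from 0 to 2 lower regions, 0 to 1 lower windows and 0 to 2 lower genes, most without WT replicate 1. It gave 2 to 11 chromosomes without overlap (11 without KO replicate 2, 5 without WT replicate 1) and 0 to 2 size classes. Groups of 2 and 3 libraries separate more often by order alone than groups of 3 and 3. These counts therefore cannot be set against those from all libraries. The median log2 fold change of all regions ran from -0.003 to 0.0027 with 1 library left out, and was -0.0027 with RLE factors and 0.006 with total counts. Leaving out both WT replicate 1 and KO replicate 3, chosen after seeing the data, gave 95 lower and 209 higher regions, 96 and 212 windows and 63 and 274 genes, with a correlation of 0.33 between log2 fold change and GC content across regions. With GC-dependent offsets as well it gave 25 and 14 regions and a correlation of 0.01. The causes were not tested.

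The log2 fold change kept its sign under all 14 settings in 4 leading regions, Gm24632 (-0.4 to -0.34), St6gal2 (-0.61 to -0.42), Vmn2r118 and Pot1b (-0.32 to -0.28) and Cd209b and Cd209c (-0.35 to -0.23), and passed the threshold in 8, 4, 5 and 3 of them. Without the replicate block and the joint removal of WT replicate 1 and KO replicate 3, this was 6, 2, 3 and 1 of 12. With 3 libraries per genotype and 1 input each, the inputs give counting error only.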

Other observations

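Under the replicate block, 1 further region with a gene stood on chromosome X at Cybb (chr X, 9446101 to 9471600 bp, 12 MACS peaks), which encodes a subunit of the phagocyte NADPH oxidase. Its log2 fold change was -0.4 (edgeR adjusted p = 1.9e-05), against a median of 0.24 over chromosome X regions in the fit without the block, where it was not called. With the same block a region in Kcnt2, a sodium-activated potassium channel gene, had a log2 fold change of -0.23 (edgeR adjusted p = 0.000992) and a region in Anks1b 0.25 (0.0163). Pairing by number was not established, since 1 of the 3 same-numbered pairs had a correlation of deviations over 0.1 (0.18), so these values are listed without a call.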
